A study of Mus musculus with 6 samples.

Results

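Metallothioneins and Dkkl1 were followed through the cells of B16F10 melanoma tumors. Mt1, Mt2 and Mt3 encode metallothioneins, and Dkkl1 encodes a secreted protein related to the Dickkopf family. These 4 genes, of 32285 in the deposited tables, were chosen by measured values: Mt3 and Dkkl1 had higher levels in the T cells of the samples treated with corin. Values in T cells are therefore a description with no test, and tests were made only in the other lineages.

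The libraries were single-cell RNA-seq of CD45+ cells isolated with magnetic beads from B16F10 tumors, grown from a mouse melanoma line, in female C57BL/6 mice aged 6–10 weeks. There were 2 groups of 3 samples. Every mouse received αPD-1, an antibody that blocks the PD-1 checkpoint receptor; the αPD-1 samples came from mice given αPD-1 with vehicle, and the αPD-1 + corin samples from mice also given corin, an inhibitor of the CoREST corepressor complex. Nothing in the labels ties a sample to particular mice, so p-values measure the spread between these samples, which may be technical. No group without αPD-1 was analysed here.

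Metallothioneins are small cysteine-rich proteins that bind zinc and copper. Zinc activates the transcription factor MTF-1, which induces Mt1 and Mt2 through metal response elements in their promoters, and glucocorticoids and oxidative stress induce them as well. Mt1 and Mt2 are expressed widely, whereas Mt3 is best known from the brain. Dkkl1 is best known from the testis, where the protein is part of the sperm acrosome.

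The 3 metallothionein genes lie side by side on the plus strand of chromosome 8 (GRCm39), Mt3 at chr8:94879220-94881088, Mt2 at chr8:94898819-94900207 and Mt1 at chr8:94905710-94906955. Dkkl1 lies on the minus strand of chromosome 7, at chr7:44856027-44865161. The lncRNA gene Gm45774 overlaps Mt2 on the opposite strand. All 4 members are protein-coding genes. The promoter windows of the 4 genes are shown because matches in them separate Mt1 and Mt2 from Mt3 and Dkkl1 at the transcription starts used. Each window holds 250 bases before and 30 after a RefSeq transcription start (GRCm39), written 5′ to 3′ on the strand of the gene, and capitals mark the metal response element core, TGCACNC or TGCGCNC on either strand. The windows are chr8:94905467-94905746 for Mt1, chr8:94898996-94899275 for Mt2, chr8:94878985-94879264 for Mt3 and chr7:44861278-44861557 for Dkkl1.
Mt1: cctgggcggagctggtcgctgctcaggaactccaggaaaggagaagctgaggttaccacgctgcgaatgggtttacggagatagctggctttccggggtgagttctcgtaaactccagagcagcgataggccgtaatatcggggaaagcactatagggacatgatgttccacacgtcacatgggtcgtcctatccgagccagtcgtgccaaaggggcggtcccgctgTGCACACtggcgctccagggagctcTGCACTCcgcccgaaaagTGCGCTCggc
Mt2: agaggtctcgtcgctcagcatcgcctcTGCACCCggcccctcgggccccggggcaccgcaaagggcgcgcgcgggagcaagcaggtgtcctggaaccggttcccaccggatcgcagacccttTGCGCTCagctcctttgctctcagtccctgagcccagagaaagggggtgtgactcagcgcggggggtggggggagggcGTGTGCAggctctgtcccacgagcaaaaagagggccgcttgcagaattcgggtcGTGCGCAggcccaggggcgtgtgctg
Mt3: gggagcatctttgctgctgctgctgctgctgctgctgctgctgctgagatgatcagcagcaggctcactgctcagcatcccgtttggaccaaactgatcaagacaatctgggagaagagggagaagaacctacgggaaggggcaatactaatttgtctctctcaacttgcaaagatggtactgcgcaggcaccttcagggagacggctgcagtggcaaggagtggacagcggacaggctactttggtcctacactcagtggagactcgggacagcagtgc
Dkkl1: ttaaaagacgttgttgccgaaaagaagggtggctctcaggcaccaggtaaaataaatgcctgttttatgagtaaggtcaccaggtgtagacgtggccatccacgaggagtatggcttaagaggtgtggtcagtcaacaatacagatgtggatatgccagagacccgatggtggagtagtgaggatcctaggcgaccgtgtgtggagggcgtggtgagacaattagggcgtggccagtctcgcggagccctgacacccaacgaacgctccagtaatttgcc
The Mt1 window held 3 matches and the Mt2 window 4, and the windows of Mt3 and Dkkl1 held 0. The Mt2 and Dkkl1 windows lie inside the gene spans given above, because their RefSeq starts lie further into the gene. The outer starts of those spans were not searched, so the count for Dkkl1 describes this start only. Of 32851 promoter windows of the same length, 24.1% held at least 1 match, 1.73% at least 3 and 0.405% at least 4. A match describes letters only and is not a measured binding site.

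Each library held 52281422 to 84276739 UMIs (unique molecular identifiers, each standing for 1 captured RNA molecule) in 6433 to 13228 barcodes. After filters on genes, mitochondrial share and doublets, 28866 of 52899 barcodes were kept as cells, and pairs of libraries shared 10 to 32 barcodes. Barcodes with more than 4000 genes, left out here, held 50.1% to 70.5% of the UMIs of a library. Clusters were named from marker genes, and the names below stand for cells like that type. There were 8214 macrophages, 2640 dendritic cells (DCs), 2101 neutrophils, 1878 melanoma cells, 1464 monocytes, 985 fibroblasts, 411 NK cells and 4617 T cells. Of the T cells, 2627 were CD8 T, 349 CD4 T and 208 Foxp3+ T cells. Melanoma cells and fibroblasts lack CD45 as a rule but remained in the libraries. Levels are given as CPM, the UMIs of a gene per 1000000 UMIs of all cells of that lineage in that sample. Sums of fewer than 20 cells were left out of means and fits, which removed neutrophils of αPD-1 sample 2 and Foxp3+ T cells of αPD-1 + corin sample 3. Samples are listed as 1, 2 and 3 within each group.

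Mt1 was present in every lineage, and its mean was highest in cells that are not immune cells. Over all 6 samples Mt1 averaged 2151 ± 994 CPM (SD, n = 6) in fibroblasts, 1625 ± 241 CPM in melanoma cells and 751 ± 210 CPM in macrophages. In the αPD-1 samples alone melanoma cells came first, at 1512 against 1348 CPM in fibroblasts. Monocytes (344 CPM), DCs (338), neutrophils (285), CD8 T (232), Foxp3+ T (220), CD4 T (127) and NK cells (116) followed. Along this order the sample ranges of melanoma cells and macrophages did not overlap, whereas those of every other pair of neighbours did. RNA of macrophages in other cells, scaled by the macrophage markers found there, would account for 47.7% to 127% of Mt1 in DCs, 13.2% to 99.5% in monocytes, 16.0% to 78.8% in neutrophils and 15.0% to 99.8% in CD4 T cells (range over samples), and the part of that RNA in these means was not tested further. In melanoma cells this share was 1.21% to 4.35%. Mt2 had the same 3 lineages at the top, at 1553 ± 677 CPM in fibroblasts, 572 ± 118 in melanoma cells and 141 ± 75.0 in macrophages, and here neither fibroblasts and melanoma cells nor melanoma cells and macrophages overlapped. RNA of melanoma cells, scaled by the melanoma markers found in macrophages, would account for 4.74% to 22.2% of macrophage Mt1 (range over samples). For macrophage Mt2 this share was 6.58% to 96.1%, and the part of that RNA was not tested further. The remaining lineages had Mt2 means between 10.7 CPM in monocytes and 52.6 CPM in CD8 T cells.

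**Figure D1:**
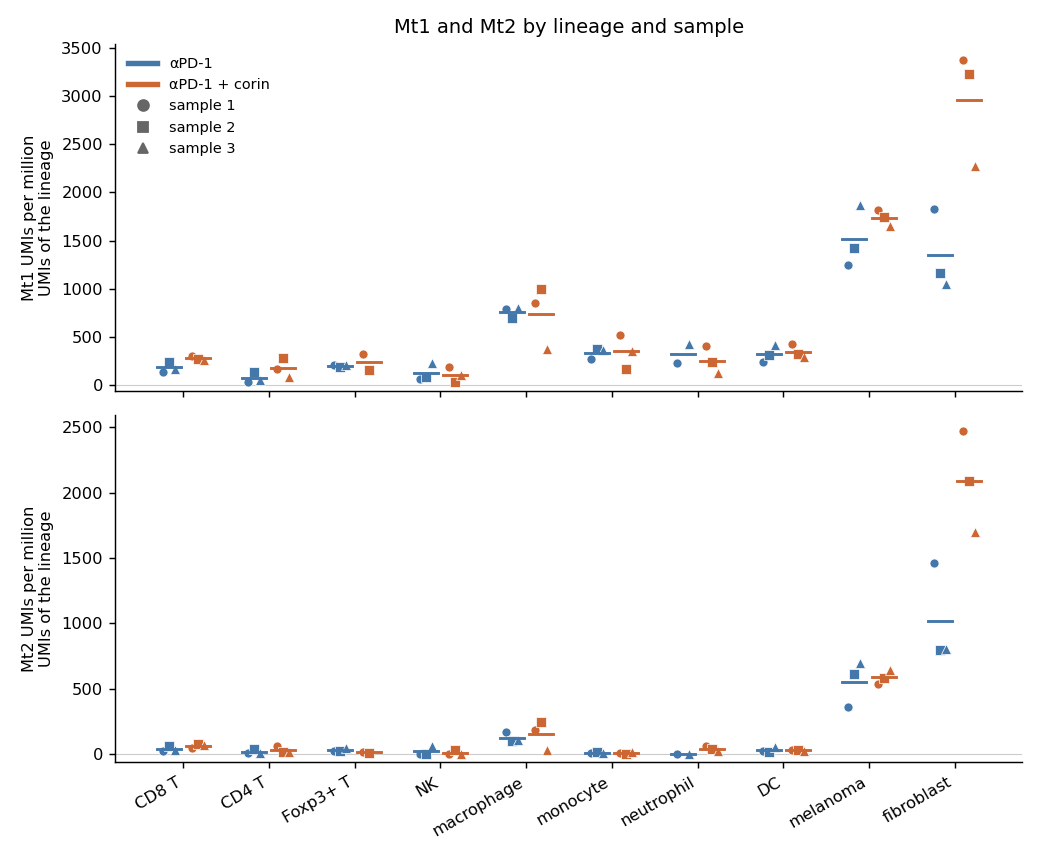
Mt1 and Mt2 level in CPM by lineage, one point per sample with at least 20 cells (blue, αPD-1; orange, αPD-1 + corin; circles, squares and triangles, samples 1, 2 and 3) and a line at each group mean. Fibroblasts hold the highest points for both genes, up to 3370 CPM for Mt1 and 2469 CPM for Mt2.

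The amount of Mt2 relative to Mt1 differed among lineages. Per 100 Mt1 UMIs there were 72.9 ± 5.47 Mt2 UMIs in fibroblasts (SD, n = 6), 35.2 ± 5.65 in melanoma cells, 17.5 ± 6.02 in macrophages, 9.07 ± 2.43 in DCs and 3.15 ± 1.37 in monocytes. Monocytes, from 1.74 to 4.86, did not overlap with macrophages, from 9.02 to 24.9. Within fibroblasts the ratio was 74.8 ± 5.80 in αPD-1 and 71.0 ± 5.51 in αPD-1 + corin samples (n = 3 each), a difference smaller than the spread between samples. Mt1 and Mt2 are close paralogs, and how the counting treated reads that match both is not given in the sources used here.

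Fibroblasts, the collagen-producing cells of the tumor stroma, had about 2-fold more Mt1 and Mt2 with corin, but neither gene passed the test over all genes. Mt1 was at 1831, 1164 and 1050 CPM in αPD-1 samples 1 to 3 and at 3370, 3223 and 2268 CPM in αPD-1 + corin samples 1 to 3. Every αPD-1 + corin sample was above every αPD-1 sample, with means of 1348 ± 422 and 2954 ± 599 CPM (SD, n = 3 each), a ratio of 2.19. Mt2 was at 1459, 796 and 801 CPM in the αPD-1 samples and at 2469, 2087 and 1702 CPM in the αPD-1 + corin samples. These ranges did not overlap either, with means of 1019 ± 381 and 2086 ± 384 CPM (n = 3 each), a ratio of 2.05. In edgeR's quasi-likelihood test the log2 fold change was 1.12 (SE 0.33, adjusted p = 0.0864) for Mt1 and 1.03 (SE 0.33, adjusted p = 0.108) for Mt2. The threshold was an adjusted p of 0.05 over all genes tested, and 143 of 6882 genes in fibroblasts (2.08%) passed it. DESeq2 gave adjusted p-values of 0.0105 for Mt1 and 0.0280 for Mt2, where 264 of 6882 genes passed. Without αPD-1 + corin sample 3 edgeR gave 0.0238 and 0.0363, where 919 of 7062 genes passed.

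The αPD-1 samples held few fibroblasts, 62, 37 and 48 cells against 611, 79 and 148 with corin. Fibroblast markers summed to 34791–37221 CPM in the αPD-1 and 31391–40921 CPM in the αPD-1 + corin fibroblasts, and all 7 were detected. Macrophage markers in the same cells stood at 114–184 CPM and 289–477 CPM, and monocyte markers at 502–818 CPM and 1306–1876 CPM. Neutrophil markers stood at 21.2–46.5 CPM and 56.5–349 CPM, and B cell markers, in the other direction, at 1359–1623 CPM and 637–1154 CPM. The part of monocyte and B cell RNA in these levels was not tested. At the ratio of these macrophage markers, macrophage RNA would account for 0.382% to 1.45% of fibroblast Mt1 and 0.0778% to 0.287% of fibroblast Mt2. Scaled in the same way by their own markers, neutrophil RNA would account for at most 0.0940% and 0.0226%. Melanoma RNA would account for 0.834% to 3.05% of fibroblast Mt1 and 0.429% to 1.49% of fibroblast Mt2. To set depth aside, cells were thinned to 1000 UMIs. The share of fibroblasts with an Mt1 UMI was then 47.0% ± 6.02 in αPD-1 and 62.5% ± 5.52 in αPD-1 + corin samples (SD, n = 3 each; 82.8% and 86.0% unthinned). A two-sided exact permutation test over the samples gave p = 0.1, the smallest that 3 against 3 allows, and 1 after adjustment over the 28 shares tested. For Mt2 the shares were 36.5% ± 15.4 and 51.8% ± 3.84 (exact permutation p = 0.3).

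Macrophages, the tumor-resident phagocytes and the largest lineage here, showed no difference in Mt1 or Mt2 beyond the spread between samples. Mt1 was at 788, 701 and 796 CPM in the αPD-1 samples and at 853, 997 and 371 CPM in the αPD-1 + corin samples. The αPD-1 + corin group held both the highest and the lowest sample, with means of 762 ± 52.5 and 741 ± 328 CPM (SD, n = 3 each). Mt2 was at 170, 102 and 109 CPM against 182, 248 and 33.5 CPM, again with sample 3 of the corin group lowest. The edgeR log2 fold changes were 0.12 (SE 0.32, adjusted p = 0.851) for Mt1 and 0.46 (SE 0.57, adjusted p = 0.678) for Mt2, where 45 of 11150 genes (0.404%) passed. Without αPD-1 + corin sample 3 they were 0.45 (edgeR adjusted p = 0.0475) and 0.93 (0.0192). In that fit 2344 of 11387 genes passed, so this single library decides both calls along with those of many other genes.

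The low level of αPD-1 + corin sample 3 was seen in 4 of the 5 macrophage clusters. In the cluster led by Ms4a7 and C1qc, Mt1 was at 655, 582 and 603 CPM in αPD-1 and at 687, 505 and 360 CPM in αPD-1 + corin samples. In the cluster led by Mmp12 and Mmp13, genes of matrix-degrading proteases, it was at 1173, 1284 and 1199 CPM against 1674, 1353 and 458 CPM. In the cluster led by Lyve1 and Fcna, which also expressed Folr2, a resident macrophage gene, it was at 789, 808 and 745 CPM against 534, 627 and 270 CPM. Of the 5 clusters only this one had no overlap between the groups for Mt1, with all corin samples lower. Sample 3 of the corin group was the lowest sample in each of the clusters named so far, and also at 668 CPM in the cluster led by Ppbp and Ccl24. In the smallest cluster, led by Slc8a1 and Frmd4b, it was at 143 CPM, above sample 2 of its group at 120 CPM. The Ppbp cluster held 35, 19 and 56 macrophages in αPD-1 and 1520, 414 and 29 in αPD-1 + corin samples, so the lineage had a different makeup in the groups. The Mmp12 cluster had the highest Mt1 level of these 4 clusters in αPD-1 samples 1 to 3 and in αPD-1 + corin samples 1 and 2.

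Melanoma cells had high Mt1 and Mt2 in both groups. Mt1 was at 1248, 1423 and 1863 CPM in αPD-1 and at 1816, 1748 and 1650 CPM in αPD-1 + corin samples. Mt2 was at 358, 614 and 694 CPM against 538, 583 and 643 CPM. The αPD-1 ranges enclosed those of the αPD-1 + corin samples, and edgeR gave log2 fold changes of 0.22 (adjusted p = 0.825) and 0.11 (adjusted p = 0.941). In melanoma cells 0% of 9462 genes passed, with 674 at an unadjusted p under 0.05 in edgeR and 6 called by DESeq2.

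Monocytes, DCs, NK cells and neutrophils had lower Mt1. In monocytes Mt1 was at 275, 371 and 361 CPM in αPD-1 and at 524, 172 and 360 CPM in αPD-1 + corin samples (edgeR log2 fold change 0.14, adjusted p = 0.847; 1.46% of 7606 genes passed). In DCs it was at 240, 317 and 422 CPM against 429, 324 and 294 CPM (0.18, edgeR adjusted p = 0.759; 1.02% of 9981 genes passed). In each of these lineages the groups overlapped, and so they did for Mt2, with log2 fold changes of 0.069 in monocytes (edgeR adjusted p = 0.963) and 0.086 in DCs (0.947). NK cells gave 61.4, 80.9 and 226 CPM of Mt1 against 185, 31.1 and 111 CPM, from 4 to 32 UMIs a sample (edgeR adjusted p = 0.999). Among NK genes 0% of 2692 passed, with 376 at an unadjusted p under 0.05 and 46 called by DESeq2.

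Neutrophils had Mt2 UMIs in the corin group only, but the αPD-1 samples held few of them. Mt2 had 0 UMIs in each αPD-1 sample, from 24, 14 and 23 neutrophils, and 163, 238 and 9 UMIs in the αPD-1 + corin samples, from 712, 1226 and 102. Summed over the samples with at least 20 cells, the corin level of 47.4 CPM was 2.59-fold the floor of 3 counts in the αPD-1 group. The lowest αPD-1 + corin sample was at 23.5 CPM, against a floor of 18.3 CPM. The floor takes each UMI as independent and rests on few αPD-1 neutrophils, so this fold is not a lower limit. Mt2 passed the filter on low counts through the corin group alone, so its edgeR p (0.382 adjusted) supports nothing. Macrophage markers in neutrophils stood at 753–1366 CPM in αPD-1 and 2264–3925 CPM in αPD-1 + corin samples, and at the ratio of these markers macrophage RNA would account for 26.7% to 109% of neutrophil Mt2 where it was detected. Mt1 in neutrophils was at 228 and 427 CPM in αPD-1 samples 1 and 3 and at 405, 238 and 128 CPM with corin (edgeR adjusted p = 0.946). Among neutrophil genes 0% of 5675 passed, with 557 at an unadjusted p under 0.05 and 30 called by DESeq2.

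**Figure D2:**
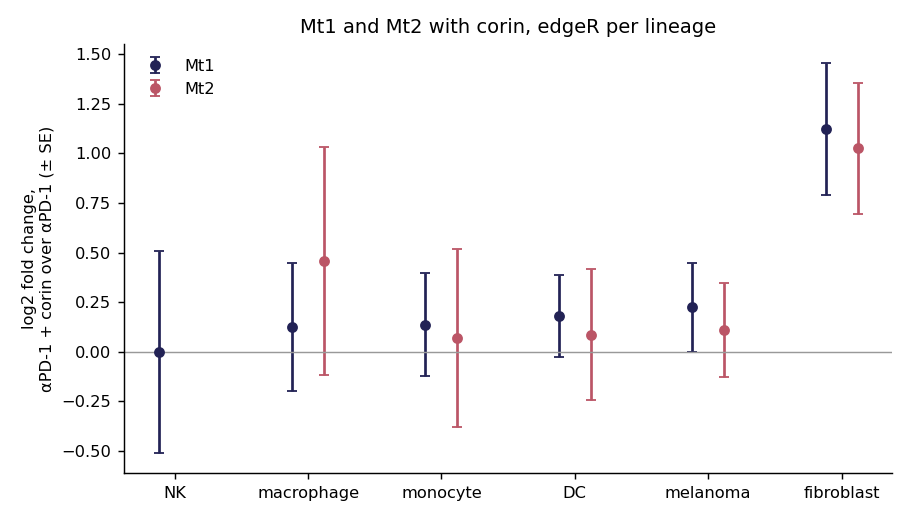
Log2 fold change of Mt1 and Mt2 with corin over αPD-1 alone by lineage, as edgeR estimates with bars of 1 SE; neutrophils are left out because Mt2 was at 0 in their αPD-1 samples. Fibroblasts have the highest estimates, 1.12 for Mt1 and 1.03 for Mt2, and the other lineages outside T cells lie closer to 0.

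Of the 4 members, only Mt1 and Mt2 passed edgeR's filter on low counts outside T cells, and Mt3 and Dkkl1 passed it in none of the 7 lineages. Of the 13 member tests made, edgeR called 0, with 3 at an unadjusted p under 0.05. Of these, neutrophil Mt2 compares with a count of 0, and 2 were in fibroblasts. Over all genes, 15.1% of edgeR tests in the 7 lineages and 23.2% in fibroblasts had an unadjusted p under 0.05. DESeq2 called 2 of the 11 member tests for which it gave an adjusted p, both in fibroblasts. The effect of corin was then compared between lineages in 1 edgeR fit with macrophages as the reference. The fibroblast effect minus the macrophage effect on the log2 scale was 1.06 for Mt1 (unadjusted p = 0.0179, edgeR adjusted p = 0.291) and 0.76 for Mt2 (edgeR adjusted p = 0.620). In this comparison 0.151% of 11950 genes passed for fibroblasts, 0.0418% for monocytes, 0.0167% for melanoma cells, and 0% for DCs and for NK cells. The differences for Mt1 and Mt2 in monocytes, DCs, NK cells and melanoma cells ranged from -1.10 to 0.23, and none passed.

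Mt3 was sparse outside T cells and fibroblasts. Its 6-sample means were 65.3 ± 145 CPM in fibroblasts, 17.1 ± 9.25 in CD8 T cells, 8.35 in Foxp3+ T and 4.61 in CD4 T cells, and no more than 2.39 CPM in any other lineage. NK cells, which share a cytotoxic program with CD8 T cells, had 0 Mt3 UMIs in all 6 samples. The 0 of 411 NK cells allow a share of up to 0.73% of cells with an Mt3 UMI. Monocytes had 1 Mt3 UMI and macrophages 28 in all, at 4, 16 and 0 UMIs in αPD-1 and 5, 2 and 1 in αPD-1 + corin samples. Of the 16 UMIs in αPD-1 sample 2, 15 were in 1 macrophage.

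In fibroblasts Mt3 was detected in the corin group alone, and most of its UMIs came from few cells. It had 0 UMIs in each αPD-1 sample and 126, 231 and 4 UMIs in the αPD-1 + corin samples, or 27.2, 361 and 3.48 CPM. Over all samples the corin level was 56.2 CPM, 23.7-fold the floor of 3 counts in the αPD-1 group. Without sample 2 it was 22.5 CPM, 9.49-fold the floor, and without sample 1 it was 131 CPM, 55.4-fold the floor. The floor takes each UMI as independent, which UMIs held by few cells are not. The 147 αPD-1 fibroblasts could lack such cells by sampling alone, so these folds are not lower limits. In sample 1, 21 of 611 cells held the 126 UMIs, and 7 cells with at least 5 UMIs held 84.9% of them. In sample 2, 10 of 79 cells held the 231 UMIs, and 6 cells with at least 5 UMIs held 94.8%. The highest single cells held 69 and 73 UMIs. In sample 3 the 4 UMIs were in 4 cells. Fitted values and p-values of fibroblast Mt3 compare with a count of 0 and support nothing, so none is read here.

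Mt3-rich fibroblasts also had higher Mt1 and Mt2 than the other fibroblasts of their sample. In αPD-1 + corin sample 1 the 7 cells with at least 5 Mt3 UMIs had a median of 10891 CPM of Mt1 against 1512 CPM in the other 604 cells, and 9067 against 902 CPM of Mt2. In sample 2 the 6 such cells had 15032 against 1228 CPM of Mt1 and 6031 against 684 CPM of Mt2. These cells held 125 to 945 UMIs of the fibroblast markers in sample 1, but only 2 to 135 in sample 2, where melanoma markers reached 2 UMIs. Cells are not replicates, so these medians describe 2 libraries.

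Some of these barcodes repeat each other. In αPD-1 + corin sample 2, 3 fibroblast barcodes of 7152 to 7947 UMIs had gene counts that differed by no more than sampling noise (chi-square per gene 0.914 to 1.35, against a median of 7.49 for the nearest pairs of that sample), and they held 181 of the 231 Mt3 UMIs, 391 Mt1 UMIs and 130 Mt2 UMIs. No pair of fibroblast barcodes from different samples was this alike. With each group of alike barcodes counted once, a choice made after seeing the data, fibroblast Mt3 was at 126, 123 and 4 UMIs, or 28.9, 236 and 3.51 CPM, in the αPD-1 + corin samples. The fold changes of Mt1 and Mt2 were then 1.08 (edgeR adjusted p = 0.0852) and 1.02 (0.102).

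**Figure D3:**
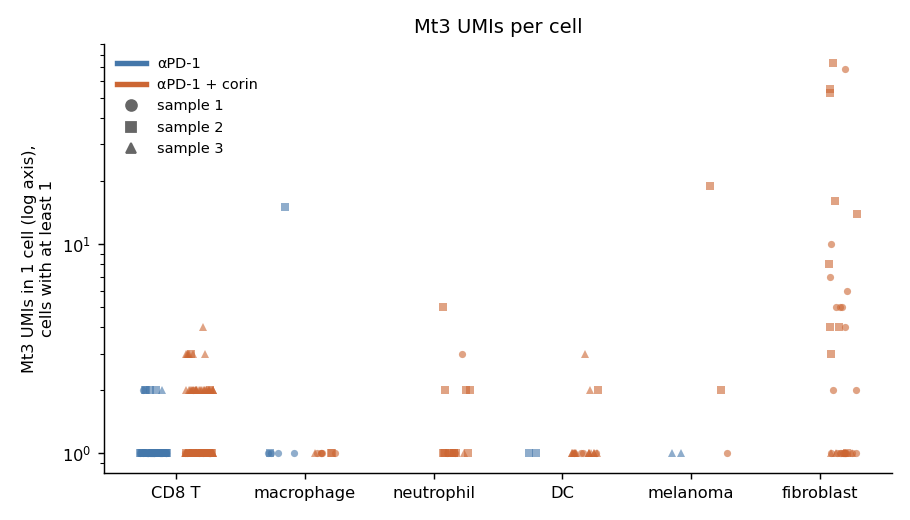
Mt3 UMIs per cell on a log axis, for cells with at least 1 Mt3 UMI in 6 lineages, by sample (blue, αPD-1; orange, αPD-1 + corin). Fibroblasts of αPD-1 + corin samples 1 and 2 hold cells with up to 69 and 73 UMIs, whereas no T cell exceeds 4.

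In the other lineages Mt3 had few UMIs. DCs had 0, 2 and 0 UMIs in αPD-1 and 4, 2 and 19 in αPD-1 + corin samples, and the 19 UMIs were spread over 16 cells. Melanoma cells had 0, 0 and 2 UMIs against 1, 21 and 0, and 19 of the 21 UMIs were in 1 cell. Neutrophils had 0 UMIs in the αPD-1 samples and 5, 20 and 2 with corin, which is under the floor that the few αPD-1 neutrophils allow.

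Among the 10 lineages, Dkkl1 had its highest means over all samples in T and NK cells. Its means over all samples were 27.6 ± 27.8 CPM in Foxp3+ T (SD, n = 5), 23.4 ± 23.7 in CD4 T (n = 6), 20.2 ± 12.6 in NK and 16.3 ± 10.6 in CD8 T cells, whose ranges overlapped. The order among these 4 differed between groups: in αPD-1 samples NK cells came first at 25.5 CPM, then Foxp3+ T (17.3), CD8 T (8.86) and CD4 T cells (4.45), and the T cell values with corin chose the gene. DCs followed at 4.23 ± 0.737 CPM over all samples, and at 4.49 CPM in αPD-1 samples, where CD4 T cells were no higher. Over all samples the ranges of CD8 T cells and DCs did not overlap. Those of CD4 T and Foxp3+ T cells, with lowest samples at 3.71 and 0 CPM, overlapped with DCs, from 2.79 to 4.86 CPM. Fibroblasts had 2 Dkkl1 UMIs and melanoma cells 2 over all samples. Mt3 and Dkkl1 thus differed in NK cells, where Mt3 was at 0 and Dkkl1 at 7, 6 and 1 UMIs in αPD-1 and 2, 2 and 4 UMIs in αPD-1 + corin samples. In DCs Dkkl1 was at 4.86, 4.44 and 4.18 CPM against 4.63, 2.79 and 4.45 CPM, and the groups overlapped. Macrophages had at most 0.991 CPM in any sample.

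**Figure D4:**
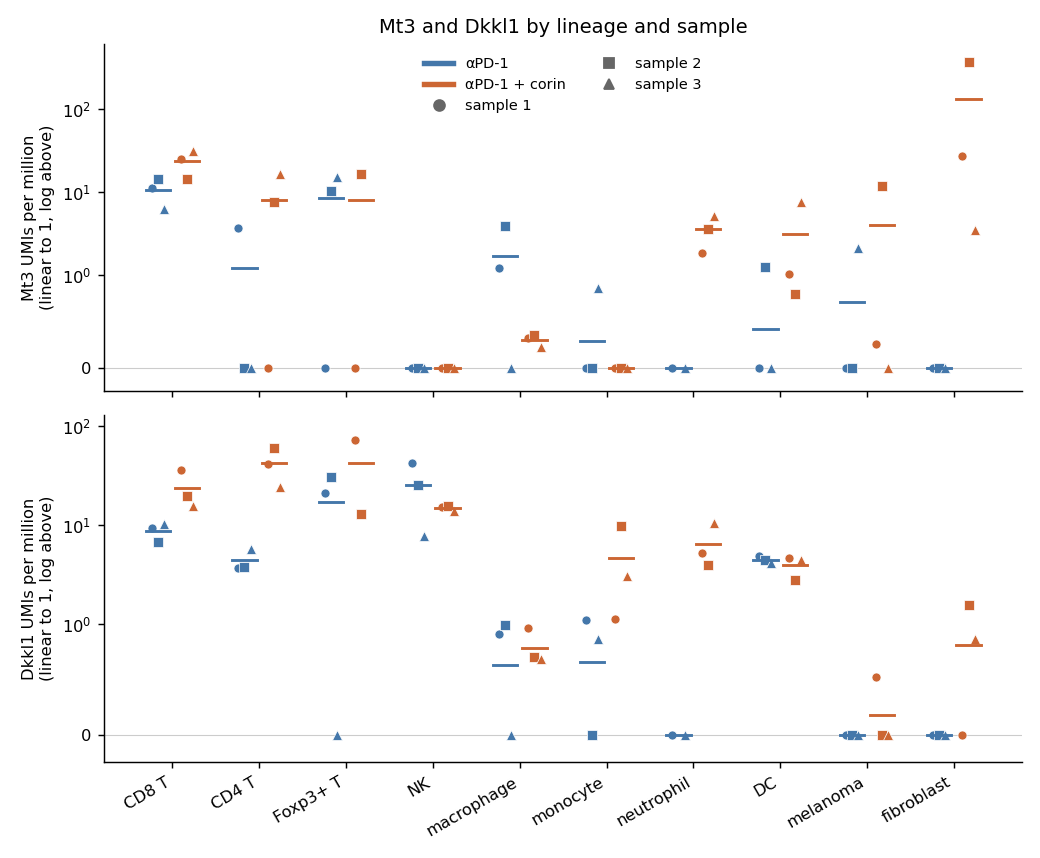
Mt3 and Dkkl1 level in CPM by lineage, one point per sample with at least 20 cells and a line at each group mean (blue, αPD-1; orange, αPD-1 + corin; circles, squares and triangles, samples 1, 2 and 3); the axis is linear up to 1 CPM and logarithmic above. Mt3 reaches 361 CPM in fibroblasts of 1 αPD-1 + corin sample and is at 0 in NK cells, where Dkkl1 lies between 7.79 and 43.0 CPM.

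In T cells, whose values chose Mt3 and Dkkl1, all 4 genes had higher means with corin. Mt3 was at 7.70, 9.45 and 5.89 CPM (23, 36 and 14 UMIs) in αPD-1 and at 12.2, 13.2 and 28.0 CPM (9, 28 and 221 UMIs) in αPD-1 + corin samples. Dkkl1 was at 10.4, 9.19 and 8.83 CPM against 34.0, 19.8 and 15.9 CPM. The groups did not overlap for either gene, but the order among the corin samples was the opposite, with sample 3 highest for Mt3 and sample 1 highest for Dkkl1. Mt1 was at 122, 196 and 150 CPM against 253, 235 and 237 CPM, and Mt2 at 19.4, 45.7 and 25.2 CPM against 46.2, 62.6 and 64.5 CPM. Group means were 156 ± 37.5 and 242 ± 9.76 CPM for Mt1 and 30.1 ± 13.8 and 57.8 ± 10.0 CPM for Mt2 (SD, n = 3 each). The ratios of the group means were 1.55 for Mt1, 1.92 for Mt2, 2.32 for Mt3 and 2.45 for Dkkl1. The log2 ratios fitted by edgeR, which scales the libraries and gives larger ones more weight, were 0.69, 1.02, 1.45 and 1.15, so Mt3 and Dkkl1 change places with the method.

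CD8 T cells, the cytotoxic T cells, held most Mt3 UMIs of the T cells. Mt3 was there at 11.3, 14.4 and 6.25 CPM in αPD-1 and at 24.8, 14.4 and 31.3 CPM in αPD-1 + corin samples, and Dkkl1 at 9.40, 6.76 and 10.4 CPM against 35.8, 19.7 and 15.7 CPM. The log2 ratios of the group means were 0.59 for Mt1, 0.74 for Mt2, 1.15 for Mt3 and 1.42 for Dkkl1, and those fitted by edgeR were 0.61, 0.83, 1.24 and 1.22. Without αPD-1 + corin sample 3 the fitted log2 ratio of Mt3 was 0.67 in CD8 T and 0.74 in all T cells. In CD4 T cells Mt1 was at 37.1, 141 and 52.4 CPM against 165, 282 and 81.7 CPM, and in Foxp3+ T cells at 215, 189 and 206 CPM against 328 and 163 CPM in samples 1 and 2, with overlap in both. In CD4 T cells Dkkl1 had 1 UMI in each αPD-1 sample and 2, 8 and 3 UMIs with corin. Foxp3+ T cells, regulatory T cells, had 5, 6 and 0 Dkkl1 UMIs against 4 and 4, and 0, 2 and 2 Mt3 UMIs against 0 and 5.

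Among CD8 T cells thinned to 1000 UMIs, 0.60% of αPD-1 and 1.65% of αPD-1 + corin cells had an Mt3 UMI, and 0.85% and 3.73% a Dkkl1 UMI (means of 3 samples). Single samples decided these means: Mt3 shares were 0.27%, 0.69% and 0.86% in αPD-1 and 1.01%, 0.51% and 3.44% in αPD-1 + corin samples, with overlap, and without sample 3 the corin mean was 0.76%. Dkkl1 shares were 1.07%, 0.92% and 0.57% against 7.07%, 2.04% and 2.07%, and without sample 1, with 99 cells, the corin mean was 2.05%. Unthinned, the shares were 4.54% and 9.94% for Mt3 and 3.78% and 9.56% for Dkkl1, at median depths of 2897 to 6391 UMIs per cell. In monocytes, a lineage taken here to lack both genes, 0.10% and 0% of unthinned cells had an Mt3 UMI and 0.22% and 1.01% a Dkkl1 UMI, at 2977 to 3972 UMIs per cell. No T cell held more than 4 Mt3 UMIs. In αPD-1 + corin sample 3 the 221 UMIs were in 177 T cells, and the highest cell held 1.81% of them.

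The makeup of the T cells differed between groups. The cluster led by Dapl1, Tcf7 and Lef1, genes of naive T cells, held 312, 293 and 190 T cells in αPD-1 and 7, 13 and 17 in αPD-1 + corin samples, and its αPD-1 cells had no Mt3 and 1.67 CPM of Dkkl1. In the cluster led by Xcl1 and Gzma, Mt3 was at 2.85, 5.96 and 6.38 CPM in αPD-1 and at 10.5, 7.55 and 14.4 CPM in αPD-1 + corin samples, without overlap. These levels came from 4, 8 and 8 UMIs against 6, 8 and 39 UMIs, in cells whose values chose Mt3. Mt2 there was at 17.1, 23.8 and 20.8 CPM against 54.3, 48.2 and 37.2 CPM, without overlap. Dkkl1 was at 12.1, 11.9 and 6.38 CPM in αPD-1 samples and at 13.2 CPM or more in αPD-1 + corin samples, which averaged 20.8 ± 12.4 CPM (SD, n = 3). Mt1 was 170 ± 36.9 and 242 ± 47.9 CPM (SD, n = 3 each) with overlap. The ratios of the means in this cluster were 1.42 for Mt1, 2.26 for Mt2, 2.13 for Mt3 and 2.05 for Dkkl1. In the cluster led by the cytotoxic genes Gzmb, Gzmc and Prf1, Mt3 was at 23.8, 18.3 and 9.50 CPM against 19.3, 19.6 and 35.5 CPM, and the groups overlapped. Dkkl1 in that cluster averaged 16.0 ± 4.80 CPM in αPD-1 and 25.5 ± 7.79 CPM in αPD-1 + corin samples (SD, n = 3 each), and its groups overlapped as well. Mt1 there was 220 ± 38.6 CPM in αPD-1 and 210 ± 71.0 CPM in αPD-1 + corin samples (SD, n = 3 each), and Mt2 57.4 ± 21.8 and 59.6 ± 34.9 CPM. The ratios of the means were 0.953 for Mt1, 1.04 for Mt2 and 1.44 for Mt3, and the log2 ratio of Dkkl1 was 0.67. Over all T cells without a UMI of the naive genes, the ratios of the group means were 1.33 for Mt1, 1.40 for Mt2, 1.38 for Mt3 and 2.74 for Dkkl1, and the log2 ratios fitted by edgeR were 0.47, 0.55, 0.71 and 1.23.

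**Figure D5:**
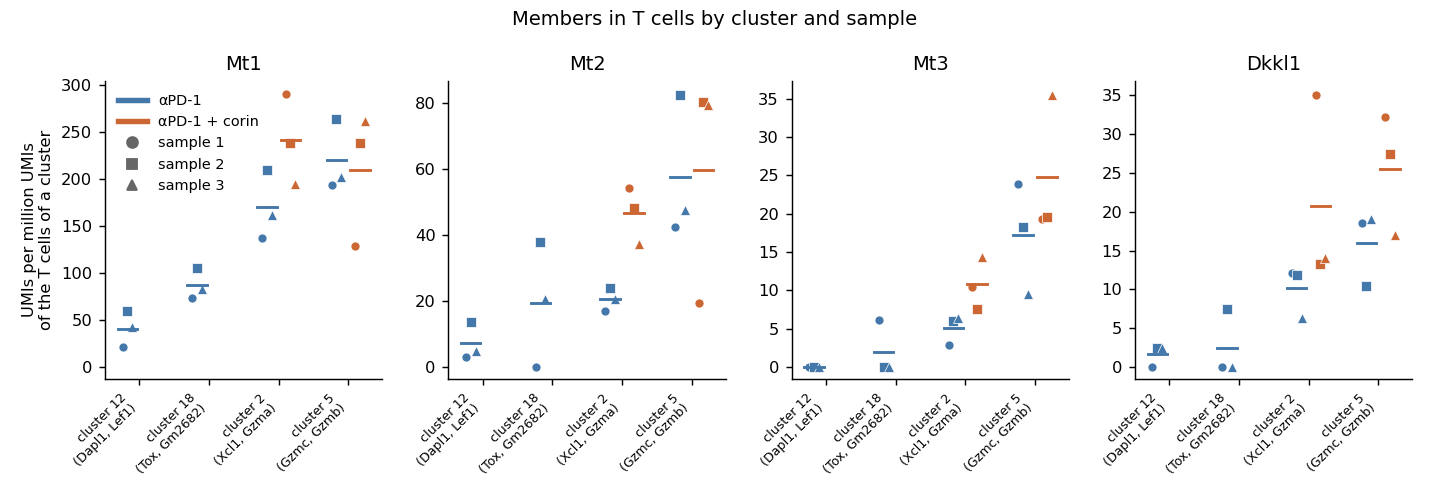
Level of the 4 genes in CPM within T cell clusters, one point per sample with at least 20 T cells in the cluster and a line at each group mean (blue, αPD-1; orange, αPD-1 + corin). Mt3 does not overlap between groups in the Xcl1 and Gzma cluster, from 4 to 39 UMIs a sample, and overlaps in the Gzmb cluster. Mt3 and Dkkl1 were chosen by values of these T cells.

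Markers of other cell types moved with the groups in T cells. The 7 macrophage markers summed to 714–919 CPM in T cells of the αPD-1 and 1203–2111 CPM in T cells of the αPD-1 + corin samples, and the 7 neutrophil markers to 61.2–111 CPM and 123–746 CPM. Monocyte markers stood at 936–1285 CPM and 1313–1608 CPM, and B cell markers, in the other direction, at 146–304 CPM and 13.2–81.6 CPM. Melanoma markers stood at 73.5–122 CPM and 73.9–115 CPM, with overlap. At the ratio of the macrophage markers, macrophage RNA would bring 38.6 to 121 CPM of Mt1 into CD8 T cells, or 14.9% to 61.0% of their level, and 3.48 to 30.2 CPM of Mt2. For Mt3 this was at most 0.298 CPM and for Dkkl1 at most 0.120 CPM. Scaled in the same way by melanoma markers, melanoma RNA would account for 2.80% to 11.5% of Mt1 and 4.89% to 24.4% of Mt2 in CD8 T cells. Fibroblast RNA would account for at most 1.82% and 9.28% of them, and neutrophil RNA for at most 6.30% and 6.56%. Beyond these ratios, the part of other cells' RNA in the T cell levels was not tested.

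Genes of the pathways around the members mostly did not pass the test, and neither did most genes. Over all genes of the 7 lineages outside T cells, 15.1% of edgeR tests had an unadjusted p under 0.05. The share of all genes called ranged from 0% in NK cells, neutrophils and melanoma cells to 2.08% in fibroblasts. At these shares a list of this size would hold few calls. Over the same lineages, the zinc handling list of 26 genes, which holds Mtf1, the zinc transporters and Mt4, had 0 of 81 edgeR tests called and 9 at an unadjusted p under 0.05. Glucocorticoid-induced genes had 0 of 64 and 14, and Wnt antagonists and related genes 0 of 24 and 3. Targets of NRF2, the factor of the oxidative stress response, had 1 test called higher and 1 lower of 79, with 23 at an unadjusted p under 0.05. In fibroblasts, 7 of 11 NRF2 targets had an unadjusted p under 0.05, where 23.2% of all genes did, and the list had a median log2 fold change of 0.66 against 0.013 over all genes tested. Mt4, the remaining metallothionein, had 1 UMI over all lineages.

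The called genes of these lists are named here after their values were seen. Fth1, the ferritin heavy chain that stores iron, rose in fibroblasts, from 1391, 1704 and 1349 CPM in αPD-1 to 4759, 5098 and 2706 CPM in αPD-1 + corin samples (log2 fold change 1.49, edgeR adjusted p = 0.0406). Fth1 has near-identical processed copies in the genome, so its counts are uncertain. Hmox1, which degrades heme, fell in monocytes, from 505, 492 and 362 CPM to 226, 143 and 259 CPM (-1.04, edgeR adjusted p = 0.0185). Among 20 genes within 100 kb of a member, 1 of 46 tests was called, in DCs, where 1.02% of all genes passed. Cd37, a tetraspanin gene near Dkkl1, fell there from 137, 109 and 117 CPM to 70.0, 63.9 and 72.0 CPM (-0.74, edgeR adjusted p = 0.0264). Each of these calls rests on its samples: leaving out 1 sample at a time ended the call in 5 of 6 cases for Fth1, 3 of 6 for Hmox1 and 4 of 6 for Cd37, with the direction kept in all of them. Over all 19 alternatives 8 ended the call for Fth1, 6 for Hmox1 and 8 for Cd37, and with DCs taken by marker UMIs in place of clusters Cd37 was at -0.24 (edgeR adjusted p = 0.926). B cell markers in DCs also fell, from 314–445 CPM in αPD-1 to 24.3–73.6 CPM in αPD-1 + corin samples. The part of B cell RNA in the Cd37 level of DCs was not tested.

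Levels over lineages and samples placed Mt1 and Mt2 together and Dkkl1 apart. Over the 58 sums of a lineage in a sample, which share libraries and depth, Pearson's r of log2 CPM was 0.79 for Mt1 with Mt2, -0.67 for Mt1 with Dkkl1 and 0.17 for Mt3 with Dkkl1. The gene most like Mt1 was Cd63 (r = 0.87), followed by Copz2, Rusc2, Gask1b and Cavin1, and the gene most like Mt2 was Maged1 (r = 0.87), followed by Adm, Copz2, Amotl1 and Samd4. Dkkl1 was most like Cd82 (r = 0.84), then Sh2d2a, Sytl3, Gzmb and Agap2. Mt3 had a lower likeness to any gene, with Ech1 first (r = 0.59), then Rgs16, Chic2, Shcbp1 and Fkbp1a.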

How the data were processed

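CD45+ cells were profiled with a 10x 5′ kit, and the authors deposited raw UMI counts per gene and barcode for each of the 6 samples; Cell Ranger 8.0 and Seurat 5.0.11 are named in the submitters' processing notes, with GRCm39. A barcode counted as a cell if it had 600 to 4000 genes with no more than 10% of UMIs mitochondrial, and doublets were removed with Scrublet in scanpy 1.11.5 (0.4% expected per 1000 barcodes). Cells were clustered in Seurat 5.3.0 (sctransform 0.4.2, 20 components, resolution 0.8) and named from markers. T cells had at least 1 CD3 or Trac UMI in T or NK clusters, and were split by Cd8a or Cd8b1, Cd4 and Foxp3 UMIs; NK cells had none and at least 2 UMIs of NK markers. Counts were summed per sample and lineage (at least 20 cells) and tested with edgeR 4.0.16 (quasi-likelihood, TMM, filterByExpr, Benjamini-Hochberg over all genes tested) in R 4.3.3; the study's own test took cells as replicates. In simulated counts with 200 changed genes, checked for macrophages, melanoma cells and fibroblasts, the test found most of them. Whether it would find differences of the size seen for Mt1 and Mt2 was not tested. Intervals and floors cover counting error only.

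The members, gene lists and tests were chosen with earlier results of these data known. The 4 members were always named; list genes were to be named where they passed in macrophages, and none did. Likeness used genes with a mean of at least 10 CPM and a prior count of 2. Same-numbered samples of the 2 groups did not deviate together (r -0.17 to 0.085), and the main fits did not pair them. With 3 samples a group this check cannot exclude that same-numbered samples were handled together. Alternatives covered DESeq2 1.42.0, scaling, filters, clustering, doublets, depth and each left-out sample.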

Additional observations from a re-analysis of the deposited data

How the results depend on the processing

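All values here are log2 fold changes, except shares, and none of the changes of sign below passed the threshold. In NK cells Mt1 turned positive without the filter on low counts (0.030), at resolution 1.2 (0.13), without the upper limit on genes (0.13), from 200 genes (0.18) and without cells holding melanoma UMIs (0.31). Monocyte Mt1 turned negative at resolution 1.2 (-0.048), without doublet removal (-0.077) and without the upper limit (-0.0011). Neutrophil Mt1 turned positive without the filter (0.039), without the upper limit (0.29), from 200 genes (1.93) and without cells holding melanoma UMIs (0.24). DC Mt1 turned negative when thinned (-0.050), as did DC Mt2 (-0.024, and -0.034 at resolution 1.2), and melanoma Mt1 (-0.15) and Mt2 (-0.21) without the upper limit. Unthinned, the difference in share of cells with an Mt2 UMI was 1.11 points in NK cells and -0.295 points in monocytes, opposite to the thinned one. Calls were gained with DESeq2 by fibroblast Mt1 (1.11, adjusted p = 0.0105) and Mt2 (1.01, 0.0280). Fits against αPD-1 groups at 0 counts support nothing: neutrophil Mt2 without the filter (9.32, adjusted p = 0.00630) and fibroblast Mt3 without the filter (10.28, 6.07e-28) and without αPD-1 + corin sample 3 (10.96, 0.0202) passed by them. The causes were not tested.

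Leaving out 1 sample at a time gave ranges of -0.40 to 0.68 for Mt1 in NK cells, -0.14 to 0.45 in macrophages, -0.22 to 0.41 in monocytes, -0.62 to 0.49 in neutrophils, -0.011 to 0.40 in DCs, 0.10 to 0.47 in melanoma cells and 0.96 to 1.40 in fibroblasts. For Mt2 they were -0.038 to 0.93 in macrophages, -0.59 to 0.34 in monocytes, 9.62 to 9.73 in neutrophils (against 0 counts), -0.22 to 0.69 in DCs, -0.13 to 0.38 in melanoma cells and 0.87 to 1.37 in fibroblasts. Against macrophages, Mt1 ranged from -0.55 to 0.62 in monocytes, -0.17 to 0.45 in DCs, -0.57 to 0.67 in NK cells, -0.24 to 0.64 in melanoma cells and 0.79 to 1.35 in fibroblasts. Against macrophages, Mt2 ranged from -1.62 to 0.47, -0.69 to 0.41, -2.46 to 1.72, -0.94 to 0.53 and 0.24 to 1.25 in the same order, and fibroblast Mt3, against 0 counts, from 11.15 to 13.01. Without αPD-1 + corin sample 3, fibroblast Mt1 was 1.27 and Mt2 1.14, and the void fit of Mt3 against macrophages gave 12.77 (adjusted p = 0.000194).

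The replicate block, pairing same-numbered samples, gave fibroblast Mt1 1.15 (adjusted p = 0.164) and Mt2 1.08 (0.175) and changed no call of a member. It moved called genes from 45 to 15 in macrophages and from 111 to 50 in monocytes. Called genes in macrophages were 2344 without αPD-1 + corin sample 3, 0 without αPD-1 sample 1 or αPD-1 + corin sample 2, 972 without the filter and 283 with DESeq2; in fibroblasts they were 919 without αPD-1 + corin sample 3, 20 without αPD-1 sample 1, 549 without the filter and 264 with DESeq2. Other size factors moved the median gene by -0.0158 to 0.0017. Few αPD-1 fibroblasts and neutrophils limit the levels there.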

Other observations

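Barcodes with more than 4000 genes were left out as cells, and in αPD-1 + corin sample 2 they held 1266 of the 1577 Mt3 UMIs of the library. They held most Mt1 and Mt2 UMIs of every library too, 60.8% to 92.4% for Mt1 and 55.9% to 94.8% for Mt2, against 50.1% to 70.5% of all UMIs and 17.5% to 43.1% of Dkkl1 UMIs. For Mt3 they had 60, 111 and 30 Mt3 UMIs in αPD-1 samples 1 to 3 and 89, 1266 and 221 in αPD-1 + corin samples 1 to 3, or 1.63, 3.36 and 0.668 CPM against 2.28, 21.8 and 4.19 CPM. In αPD-1 + corin sample 2 a single barcode held 356 Mt3 UMIs. Over all barcodes of that library, 39 held at least 5 Mt3 UMIs, of which 31 had more than 4000 genes. Of these 39 barcodes, 37 had at least 2 UMIs of fibroblast markers, 24 at least 2 of melanoma markers and 17 at least 2 of CD3 genes, and what these barcodes hold was not tested.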
